A study of Mus musculus with 4 samples.

Results

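The genes described here are those of mouse chromosome 16, taken in gene order. A transcript cluster of the array was a member where the platform's gene table gave it exactly 1 symbol and where that gene lies on chromosome 16 in the RefSeq annotation of GRCm38.p6. App, Klhl6, Bbx, Lpp, Cd96, Cd200 and the Cd200r genes were left out by the rule, which removed 12 clusters of 10 genes. This gave 692 clusters of 639 genes, out of 21789 clusters of 19938 genes with 1 symbol in the whole table. The members comprise 587 protein-coding genes, 30 lncRNA genes, 12 miRNA genes, 7 transcribed pseudogenes and 3 other RNA genes. The chromosome was chosen by the Mbd4 KO against control differences of these same arrays, since most of its well-measured genes lay lower in Mbd4 KO cells. That shift is therefore a description, and so is every difference, count and call given for the members. The values below concern the genes that departed from the shift in either direction.

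RNA came from CH12.F3, a mouse B lymphoma line that can switch from IgM to IgA in culture. The control group has 2 arrays and the Mbd4 KO group, cells without the DNA glycosylase Mbd4, has 2 arrays. All cells, controls included, had been activated for 24 hours with CD40L (25% by volume), TGFb (0.2 ng/ml) and IL4 (5 ng/ml), in medium with 6% FCS. The design names 2 independent samples per group, but the labels do not say whether they came from separate cultures or from separate knockout clones, so the spread between arrays may be technical. How the knockout was made and how many clones it comprised is not given in the labels, and the genotype cannot be told apart from other differences between these cell populations.

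Mouse chromosome 16 is gene-rich in some stretches and holds long gene-poor ones. It carries the region whose human counterpart is deleted in DiGeorge syndrome, the counterpart of much of human Down syndrome's chromosome, and clusters of keratin-associated protein and olfactory receptor genes. Among its genes are several used by B lymphocytes: Vpreb1, Vpreb2 and Igll1 encode the surrogate light chain of the pre-B cell receptor, Cd80 and Cd86 encode costimulatory ligands, and Ifnar1, Ifnar2 and Ifngr2 encode interferon receptor chains. Neighbouring genes on it need share neither function nor regulation, so gene order and function were examined separately.

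Mbd4 itself, on chromosome 6, had log2 levels of 6.47 and 6.49 in Mbd4 KO cells against 8.74 and 8.77 in control cells, so the arrays ranked as labelled. The position of its probes relative to the deleted part was not given. All 8 measured B cell markers of 9 listed were well measured, with means of 10.22 to 13.37, and their median was 11.23 in control and 11.09 in Mbd4 KO cells. None of the 5 T cell markers reached that level (means of 5.54 to 6.97), and among the other lists 1 of 5 myeloid markers (Csf1r), 1 of 3 fibroblast markers (Col1a1) and 0 of 1 measured erythroid marker did. In RNA of whole cultures, fewer cells expressing a gene and less RNA per cell cannot be told apart.

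Throughout, a level is an RMA value on the log2 scale and a difference is the Mbd4 KO mean minus the control mean of 2 arrays each, with limma's moderated standard error (SE). A gene with several clusters is given by its brightest. A gene was called well measured where its mean over the 4 arrays was at least 7.20, the median of all tested clusters; 312 of the 639 genes (48.8%) passed and 327 did not, here called dim. The median difference of the 312 was -0.28, or 82.5% of the control level, and 287 of them (92.0%) lay below 0, where 44.3% of all well-measured genes did. A gene escaped the shift where its difference lay 0.3 or more above that median, which puts it at or above its control level, and exceeded the shift where it lay 0.3 or more below. By these limits 19 genes escaped (6.09%), 13 exceeded (4.17%) and 280 lay within 0.3 of the median. Around the median of all 9856 well-measured genes of the array, chromosome 16 included, 2.16% lay as far above and 4.77% as far below. Around the median of the 9540 well-measured genes of other chromosomes the shares were 2.13% and 3.46%.

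The promoters of 6 genes on which the results turn are shown here, because they can be set beside each other: 4 genes that fell by the largest amounts, 3 of which are immediate neighbours, and a pair that escaped the shift. Each line gives the 200 bases before the annotated start, 5′ to 3′ on the gene's strand, from the RefSeq promoter table of GRCm38.p6, with each CG dinucleotide in capitals. CG is the site at which mammalian DNA is methylated and which Mbd4 binds when methylated, and it reads the same on both strands. The windows are chr16:75909267-75909466 (minus strand) for Samsn1, chr16:58670008-58670207 (plus) for Cpox, chr16:58718873-58719072 (minus) for Gpr15, chr16:58727710-58727909 (plus) for Cldnd1, chr16:21787835-21788034 (minus) for Ehhadh and chr16:87698754-87698953 (plus) for Bach1.
Samsn1: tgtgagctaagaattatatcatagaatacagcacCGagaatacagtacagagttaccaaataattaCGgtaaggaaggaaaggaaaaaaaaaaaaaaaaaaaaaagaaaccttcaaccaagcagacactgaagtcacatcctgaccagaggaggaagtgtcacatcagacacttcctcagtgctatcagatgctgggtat
Cpox: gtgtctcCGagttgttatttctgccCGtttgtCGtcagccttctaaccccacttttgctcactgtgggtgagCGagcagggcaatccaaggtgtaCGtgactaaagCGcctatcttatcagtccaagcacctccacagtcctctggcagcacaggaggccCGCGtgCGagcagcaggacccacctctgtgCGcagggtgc
Gpr15: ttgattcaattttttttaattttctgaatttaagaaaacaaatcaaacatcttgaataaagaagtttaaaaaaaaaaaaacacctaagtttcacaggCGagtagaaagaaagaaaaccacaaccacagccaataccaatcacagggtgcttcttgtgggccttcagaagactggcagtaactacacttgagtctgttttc
Cldnd1: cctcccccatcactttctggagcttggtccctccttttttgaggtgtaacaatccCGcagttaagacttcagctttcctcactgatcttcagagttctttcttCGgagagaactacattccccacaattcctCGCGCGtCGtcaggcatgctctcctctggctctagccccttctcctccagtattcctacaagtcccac
Ehhadh: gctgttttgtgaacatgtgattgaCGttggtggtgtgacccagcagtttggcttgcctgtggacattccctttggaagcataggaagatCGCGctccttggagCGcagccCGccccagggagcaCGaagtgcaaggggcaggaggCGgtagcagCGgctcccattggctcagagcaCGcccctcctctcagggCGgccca
Bach1: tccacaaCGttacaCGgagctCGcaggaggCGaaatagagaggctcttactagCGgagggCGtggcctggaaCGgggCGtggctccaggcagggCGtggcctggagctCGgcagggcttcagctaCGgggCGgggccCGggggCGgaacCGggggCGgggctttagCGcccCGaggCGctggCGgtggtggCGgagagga

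In these 200 bases CG occurred 2 times in Samsn1, 10 times in Cpox, 1 time in Gpr15 and 6 times in Cldnd1, against 10 in Ehhadh and 21 in Bach1. These 6 do not stand for their classes: in the same window the exceeding gene Tmem50b held 24 and the escaping genes Nrros and Slc12a8 held 3 and 6. Over the table's full windows of 300 bases (250 before and 50 after the start), 94.2% of all 27024 promoters hold a CG and their median is 7. Of the 19 escaping genes 16 were matched to a promoter (84.2%), with a median of 10.5 CG, and 8 of the 16 held at least 10. Of the 280 genes within the shift 243 were matched (86.8%), with a median of 23 CG, and 88.5% held at least 10; all promoters of the table gave 44.0%. The escaping genes were also the dimmer ones, as given further on. Only 79.0% of the well-measured genes with a mean under 9 were matched, so a comparison at equal brightness is incomplete and no conclusion is drawn from it. Of the 76 genes within the shift with a mean under 9, 60 were matched (78.9%). Their median was 23.5 CG, and 78.3% held at least 10. The match was incomplete for the 13 exceeding genes too, of which 10 were matched (76.9%), with a median of 9. DNA methylation was not measured here, and its part in any difference was not tested.

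Samsn1, which encodes an adaptor protein that dampens B cell activation, had the largest difference of the well-measured members. Its levels were 9.70 and 9.85 in the controls, against 8.05 and 8.33 in Mbd4 KO cells. It fell by 1.59 (SE 0.11), with both Mbd4 KO arrays far below both controls. Cpox, the coproporphyrinogen oxidase gene of haem synthesis, read 10.60 and 10.64 against 9.49 and 9.70 and fell by 1.02 (SE 0.090), 2.03-fold. Cldnd1, which encodes a claudin-domain membrane protein and was the brightest of the 13, read 12.25 and 12.41 against 11.36 and 11.40, a fall of 0.95 (SE 0.080). In both the arrays of the groups were well apart.

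Nlrc3, a NOD-like receptor gene whose product restrains innate and lymphocyte signalling, read 7.74 and 8.03 in control and 6.84 and 7.07 in Mbd4 KO cells, and fell by 0.93 (SE 0.12). Both Mbd4 KO values of Nlrc3 lay under 7.20, the limit for a well-measured mean. Tmem50b, which encodes a membrane protein of the secretory pathway, read 11.38 and 11.34 against 10.56 and 10.51 and fell by 0.82 (SE 0.067). Tigit, an inhibitory receptor gene best known from T and NK cells, read 10.86 and 10.77 against 10.01 and 10.05 and fell by 0.79 (SE 0.071). The median of the 5 T cell markers was 6.62 in control and 6.50 in Mbd4 KO cells, and none of them was well measured.

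Bdh1, whose product interconverts ketone bodies in mitochondria, read 9.66 and 9.62 against 8.93 and 8.83. Cox17, which encodes the copper chaperone of cytochrome c oxidase, read 8.60 and 8.53 against 7.78 and 7.84. Slc15a2, a peptide transporter gene, read 7.76 and 7.92 against 7.06 and 7.16, so that it, like Nlrc3, counted as well measured only through its control arrays. These 3 genes fell by 0.76 (SE 0.073), 0.75 (SE 0.070) and 0.74 (SE 0.085), and none of their Mbd4 KO arrays reached a control array.

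The remaining genes beyond the limit lay closer to it. Hspa13, a microsomal member of the Hsp70 family, fell by 0.66 (SE 0.065), Cggbp1, which encodes a CGG-repeat-binding protein, by 0.62 (SE 0.090), and Cblb, the E3 ubiquitin ligase that dampens antigen receptor signalling, by 0.62 (SE 0.084). Gm5486, a predicted RNA gene, differed by -0.66 (SE 0.11) without passing limma's threshold, and its other cluster, dim at a mean of 4.07, differed by 0.04. Just outside the limit lay Dzip3, a ubiquitin ligase gene, at -0.55 and Kpna1, an importin gene, at -0.54, against -0.62 for both Cggbp1 and Cblb just inside it.

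The 13 genes thus share no single function. Mitochondrial enzymes and chaperones (Cpox, Bdh1, Cox17), inhibitors of immune signalling (Samsn1, Nlrc3, Tigit, Cblb) and proteins of the secretory pathway or membrane (Tmem50b, Hspa13, Cldnd1, Slc15a2) were found among them, a grouping made after their values were seen. Their means ran from 7.42 to 11.86, with a median of 9.26, and 7 of the 13 were at 9 or above. All 13 had both Mbd4 KO arrays below both control arrays, a count that the limit itself favours. The plot of levels by array shows the most extreme genes of each class.

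**Figure D1:**
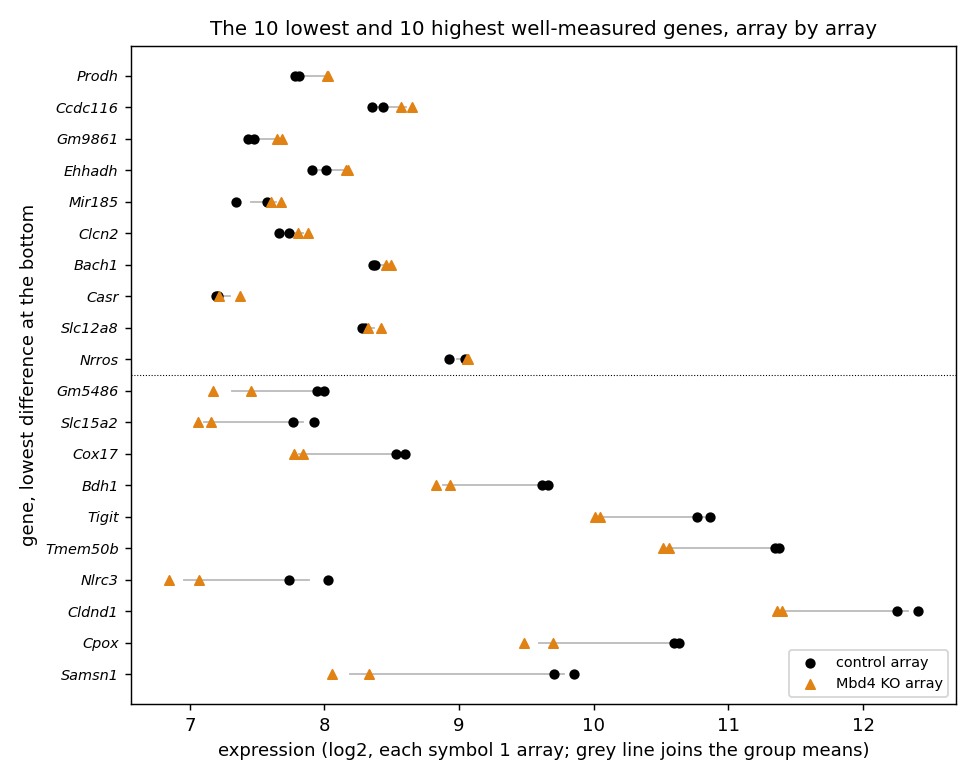
Levels (log2, horizontal axis) in each of the 4 arrays for the 10 exceeding and 10 escaping genes with the largest differences among those whose groups did not overlap. Points of the 2 groups are far apart for Samsn1 (8.05 and 8.33 against 9.70 and 9.85) and close together for the escaping genes, whose Mbd4 KO values lie just above the controls.

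One further gene changed as much but stood outside the well-measured set. Gpr15, a chemoattractant receptor gene that guides lymphocytes to the gut, read 7.45 and 7.37 in control and 5.91 and 5.96 in Mbd4 KO cells, so that its mean of 6.67 made it dim. It fell by 1.47 (SE 0.071), 2.77-fold, the largest fall of any member but Samsn1. Both control values lay above the limit of 7.20 and both Mbd4 KO values below it; no detection call was used, so no bound from the background was set. The next dim genes by rule, Tmem186 (-0.49, SE 0.13) and Zdhhc23 (-0.41, SE 0.077), did not pass limma's threshold.

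Among the 19 escaping genes, all of which lay above 0, none passed limma's threshold. Prodh, the mitochondrial proline dehydrogenase gene, had the highest difference: it read 7.81 and 7.78 in control and 8.03 and 8.02 in Mbd4 KO cells, a difference of 0.23 (SE 0.065). Ccdc116, a coiled-coil protein gene, read 8.36 and 8.43 against 8.57 and 8.65 (0.21, SE 0.073). Ehhadh, whose product carries out steps of peroxisomal fatty acid oxidation, read 7.91 and 8.01 against 8.16 and 8.18 (0.20, SE 0.072). In each of these the Mbd4 KO arrays lay above the controls, by less than 0.3.

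Bach1, which encodes a haem-sensing repressor of antioxidant genes, read 8.36 and 8.37 against 8.49 and 8.46 (0.11, SE 0.066). Gm9861, an lncRNA gene, differed by 0.21 (SE 0.066), Clcn2, a chloride channel gene, by 0.14 (SE 0.072), Casr, the calcium-sensing receptor gene, by 0.10 (SE 0.080), and Slc12a8, a solute carrier gene, by 0.08 (SE 0.071). Nrros, whose product limits reactive oxygen species and tethers latent TGF-beta, read 9.04 and 8.93 against 9.06 and 9.06 (0.08, SE 0.073) and was the brightest of the class. With Mir185, these were the 10 of 19 whose arrays did not overlap between the groups.

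The other 9 escaping genes overlapped and lay between 0.03 and 0.10. They were the sperm chromatin genes Tnp2 and Prm2, the sorting nexin gene Snx29, the heparin cofactor gene Serpind1, the surrogate light chain gene Vpreb2, the DiGeorge region genes Dgcr6 and Tbx1, the ADP-ribosyltransferase gene Parp14, and 4930451G09Rik, for which no role is given. Tnp2 and Parp14, both at 0.03, lay just inside the limit, and Pigz, a mannosyltransferase gene of GPI anchors, and Rtn4r, the Nogo receptor gene, both at 0.02, lay just outside. Snx29 had a further cluster at nearly equal brightness, which differed by 0.35 (SE 0.087) against 0.05 (SE 0.083) for the one used.

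The classes did not depend equally on single arrays. Of the 13 exceeding genes 10 stayed in their class in all 4 fits that left out an array, and Gm5486, Cblb and Cggbp1 left it without Mbd4 KO replicate 1. Of the 19 escaping genes 8 stayed in all 4 fits: Prodh, Ccdc116, Gm9861, Ehhadh, Mir185, Clcn2, Slc12a8 and Bach1. Without Mbd4 KO replicate 1 the escaping class as a whole numbered 12 genes, 10 of them among the 19. Taking each Mbd4 KO array against the control of the same number, the differences of the 312 genes correlated across genes at a Pearson's r of 0.73 and a Spearman's rho of 0.68 (0.67 for r without the 2 lowest genes), and 11 genes exceeded and 13 escaped in both pairs. With the numbers crossed, r was 0.72 and rho 0.60, and 11 genes exceeded and 9 escaped in both pairs. Genes are not independent replicates, and these values describe the 4 arrays only.

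Limma called 32 of the 692 member clusters lower, 4.62%, where 0.955% of all tested clusters were called lower, and 0 higher, where 0.431% of all tested clusters were called higher. Without adjustment, 284 member clusters were lower and 24 higher at a p under 0.05 by limma. The unadjusted share over all tested clusters is not given here, so these counts cannot be set against it. Over all member clusters, both Mbd4 KO arrays lay below both controls in 364 and above both in 66, where the shares over all tested clusters were 18.3% and 26.7%. Of the 312 well-measured genes 28 were called lower and 0 higher, where 1.33% and 0.588% of all well-measured genes were. The 28 were 12 of the 13 exceeding genes and 16 of those within the shift. Dzip3, Atg3 (autophagy conjugation, -0.53), St3gal6 (a sialyltransferase, -0.53) and Rubcn (an autophagy inhibitor, -0.53) were the lowest of the 16. Most calls were lost when an array was left out. Without any 1 array 3 clusters were called, Samsn1 and Gpr15 each time, with Cldnd1 when a control array was left out or Cpox when an Mbd4 KO array was.

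**Figure D2:**
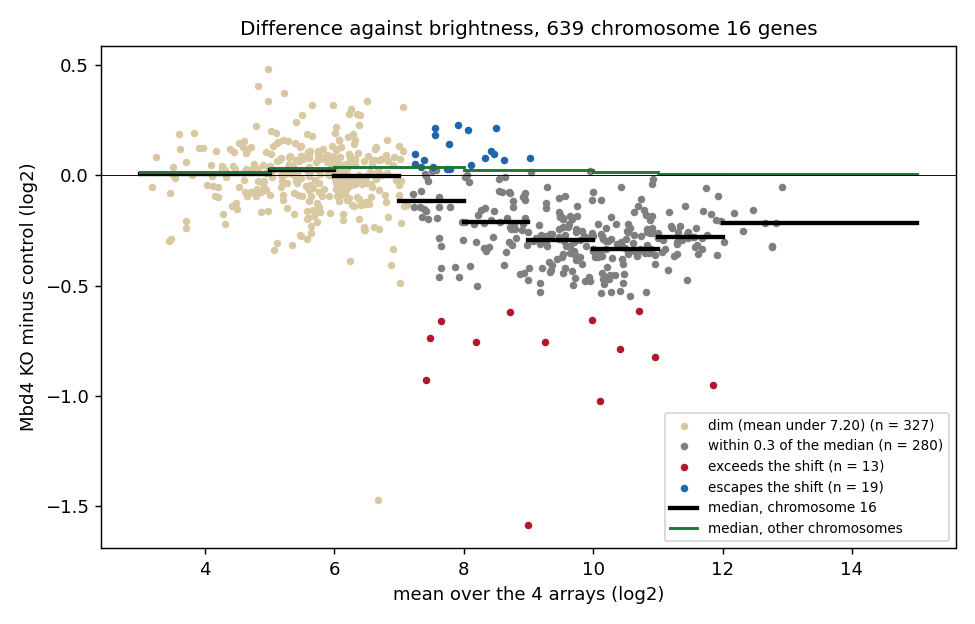
Difference (Mbd4 KO minus control, log2, vertical axis) against the mean level over 4 arrays (log2, horizontal axis) for each member gene, with classes marked and lines at the medians of each range of level for chromosome 16 and for other chromosomes. Dim genes scatter around 0, genes from a mean of 9 lie around -0.30, and the escaping genes sit almost wholly between 7.20 and 9.

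The escaping genes stood apart in brightness. Their median mean was 7.79 (7.24 to 9.02), and 18 of 19 lay under 9, while the 280 genes within the shift had a median of 9.80 and 27.1% of them lay under 9. The plot of differences against brightness shows how the shift itself varied with level. Members with a mean of 5 to 6 had a median difference of 0.02 (125 genes) and those of 6 to 7 one of -0.0044 (119 genes). From 7 to 8 the median was -0.12 (48 genes), from 8 to 9 it was -0.21 (61 genes), from 9 to 10 it was -0.29 (83 genes) and from 10 to 11 it was -0.33 (82 genes). It was -0.28 from 11 to 12 (38 genes) and -0.22 above 12 (9 genes). On other chromosomes the medians of the same ranges lay between 0.01 and 0.04.

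All members of the 3 ranges from a mean of 10 up lay below 0. From 9 to 10, 80 of 83 did, and the 3 that did not were Nrros, Pigz and Cbr3, a carbonyl reductase gene named after its value was seen (0.02, SE 0.082). Among bright genes closest to the control level were 2610318N02Rik (-0.02, SE 0.078), the adhesion molecule gene Alcam (-0.04, SE 0.080), the interleukin receptor gene Il10rb (-0.05, SE 0.082), the splicing factor gene Tra2b (-0.05, SE 0.066) and the citrate carrier gene Slc25a1 (-0.06, SE 0.067), at means of 10.43 to 12.92. Of these 2610318N02Rik, Alcam and Il10rb were picked after their values were seen. A second, dimmer cluster lay lower both in 2610318N02Rik (-0.22, SE 0.080) and in Tra2b (-0.26, SE 0.091), so these genes were near the control level in 1 of their 2 clusters only. The dimmer clusters (10438091 and 10438621) are numbered close to the nearby genes Sdf2l1 (10438098) and Etv5 (10438626). The brighter ones (10455967 and 10498185) are not. Probe positions were not given, so whether the brighter clusters read the chromosome 16 genes was not established.

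The spread around the shift was compared with other chromosomes at equal brightness. From a mean of 9, the 212 members had an interquartile width of 0.13 around a median of -0.30, and 5699 genes of other chromosomes one of 0.14 around 0.02. Of these members 3 (1.42%) lay 0.3 or more above their median and 7 (3.30%) as far below, against 1.51% and 2.30% on other chromosomes. From 7.20 to 9, the 100 members had a width of 0.29 against 0.18, and 6 lay above and 8 below their own median by that much, against 2.92% and 5.34% of the genes elsewhere. The larger spread was thus on the dimmer side. Signal over background was not assessed, and its part in the smaller differences of dim genes was not tested.

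The 327 dim genes had a median difference of 0.01, with 152 (46.5%) below 0, where 39.8% of all dim genes were below 0. In 56 of them (17.1%) both Mbd4 KO arrays lay below both controls, and in 53 (16.2%) above, where all dim genes gave 12.6% and 23.4%. Among well-measured members the counts were 266 (85.3%) below and 11 (3.53%) above, where all well-measured genes gave 23.7% and 30.7%. The highest dim genes by rule were Retnlb, a resistin-like cytokine gene (0.48, SE 0.16), Gm9789 (0.41, SE 0.10) and Cstdc6, of the stefin A family (0.37, SE 0.13), all at means of 5.22 or less, and none passed limma's threshold.

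**Figure D3:**
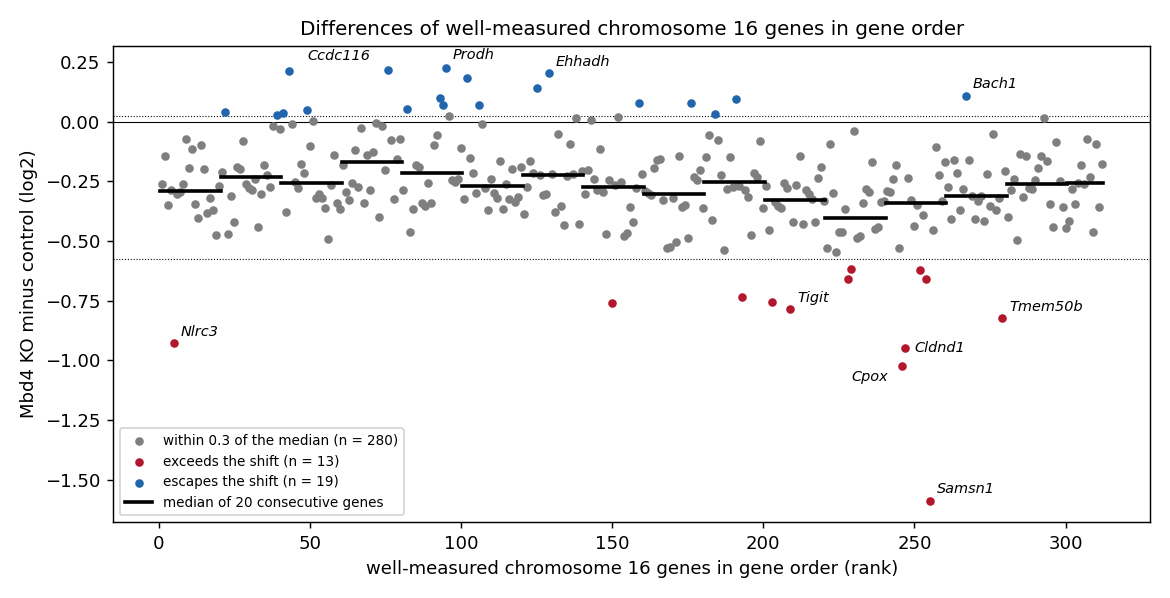
Difference (Mbd4 KO minus control, log2, vertical axis) of each well-measured member in RefSeq gene order along chromosome 16 (horizontal axis, rank of the gene), with classes marked and lines at the medians of successive blocks of 20 genes. Escaping genes crowd the first part of the order and exceeding genes the second, with Samsn1 at -1.59 the lowest.

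In gene order the classes were unevenly placed. The 312 well-measured genes were split at their midpoint into Zfp263 to Pak2 and Pigx to A630089N07Rik, 156 genes each. The first held 14 of the 19 escaping and 2 of the 13 exceeding genes, the second 5 and 11. Both had the same median mean (9.70) and 50 genes each with a mean under 9. Among those 50 the median difference was -0.07 in the first and -0.24 in the second, and among the 106 brighter genes of each it was -0.28 and -0.31. Only Bach1 escaped among the 112 genes from Lrrc58 on, where 10 genes exceeded; that dividing point was chosen after the order was seen.

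Medians of successive blocks of 20 well-measured genes ran from -0.17 (Abcc1 to Tmem191c) to -0.40 (Atg3 to Tomm70a). The block from Nit2 to Atp5j held 5 exceeding genes and had a median of -0.34. All 20 genes lay below 0 in the block from Zfp263 to Nudt16l1 and in each of the 3 successive blocks from Lrrc58 to Atp5j, as did the 12 genes of the last block, from Vps26c to A630089N07Rik. Direct neighbours of one class among the well-measured genes were Vpreb2, Dgcr6 and Prodh, which escaped, and Gm5486 with Cblb, Cpox with Cldnd1 and Hspa13 with Samsn1, which exceeded.

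**Figure D4:**
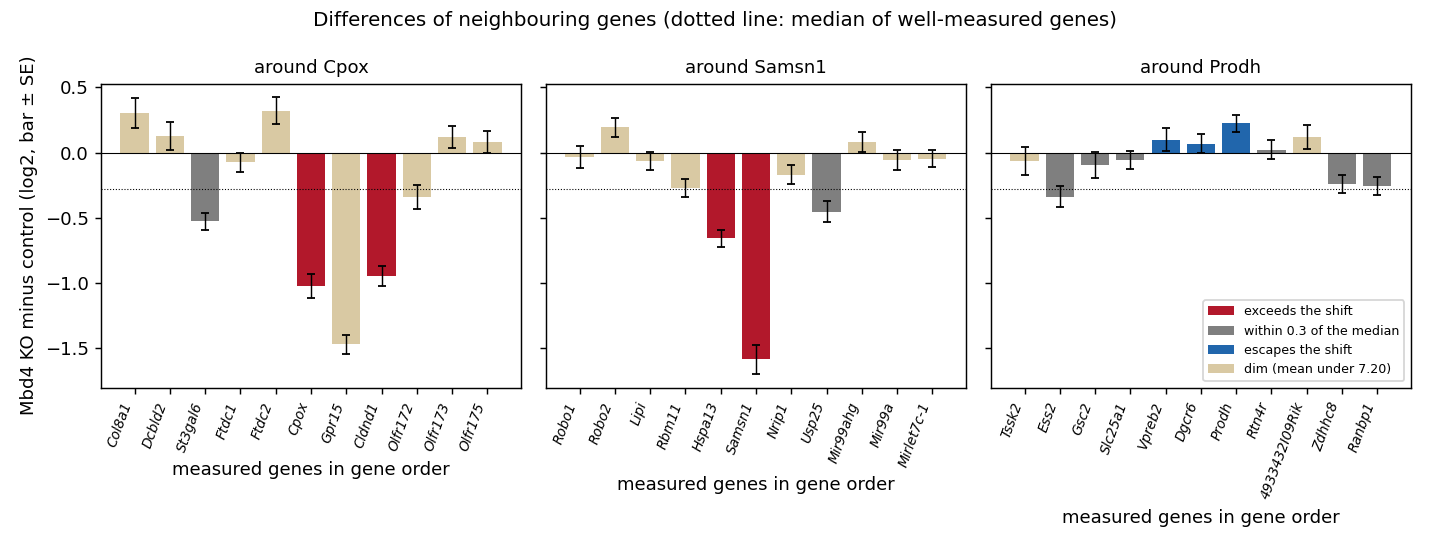
Difference (Mbd4 KO minus control, log2) with limma's SE for neighbouring genes in gene order around Cpox, Samsn1 and Prodh (horizontal axis), as bars with the classes and dim genes marked, and a dotted line at the median of the well-measured genes. Cpox, Gpr15 and Cldnd1 stand together between -0.95 and -1.47, and in the stretch around Prodh the genes from Gsc2 to Rtn4r lie between -0.10 and 0.23.

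The stretch around Cpox held 3 of the 4 largest falls side by side. St3gal6 fell by 0.53 (SE 0.065), then came the dim genes Ftdc1 (-0.08) and Ftdc2 (0.32), then Cpox, Gpr15 and Cldnd1, and after them the dim olfactory receptor genes Olfr172 (-0.34) and Olfr173 (0.12). The promoters of Cpox and Cldnd1, printed above, lie on the plus strand and that of Gpr15, between them, on the minus strand. The genes around Samsn1 were Rbm11 (-0.27, dim), Hspa13 (a called fall of 0.66), Nrip1 (-0.17, dim) and Usp25, a deubiquitinase gene (-0.45, SE 0.083). The well-measured neighbours St3gal6, Hspa13 and Usp25 also lay below the median of the chromosome. Riox2, the nearest well-measured gene beyond Cldnd1, differed by -0.24 (SE 0.082) and lay above that median.

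Around other exceeding genes the neighbours varied. Tmem50b lay next to Ifngr2 (-0.32), with Ifnar1 (-0.37), Il10rb (-0.05) and Ifnar2 (-0.35) on that side and Gart, of purine synthesis (-0.21), and Son, a splicing cofactor gene (-0.40), on the other. Nlrc3 lay between Cluap1 (-0.29) and Slx4 (-0.30), and Cox17 between Gsk3b (-0.45) and Cd80 (-0.34), its nearest well-measured genes. In the escaping run, the order was Ess2 (-0.34), Gsc2 (-0.10), Slc25a1 (-0.06), Vpreb2 (0.10), Dgcr6 (0.07), Prodh (0.23), Rtn4r (0.02), then Zdhhc8 (-0.24) and Ranbp1 (-0.25). From Gsc2 to Rtn4r all 6 well-measured genes lay above the median of the chromosome by at least 0.18, although Slc25a1 (mean 11.74) and Vpreb2, Dgcr6 and Prodh (7.91 to 8.62) differ in brightness. Ehhadh and Ccdc116 stood alone, beside Vps8 (-0.30) and Tmem41a (-0.22), and Sdf2l1 (-0.20) and Ydjc (-0.08).

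By function, 13 lists of members were described, each against the median of -0.28 for all well-measured members; the lists were drawn up with earlier results of these data known. Among mitochondrial proteins, 22 of 22 members were well measured and 22 lay below 0, with a median of -0.30. It had 3 exceeding genes (Cpox, Bdh1 and Cox17, all called lower) and no escaping gene. Subunits of the respiratory chain and mitochondrial ribosome lay within the shift: ATP synthase genes Atp5o (-0.32) and Atp5j (-0.17), and Mrpl39 (-0.33), Mrpl40 (-0.30) and Mrps6 (-0.28). The superoxide dismutase gene Sod1 (-0.16), Fam162a (-0.15) and Slc25a1 (-0.06) were nearest the control level.

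Lists of general cell functions held close to the shift. In DNA replication and repair 20 of 21 members were well measured, 20 of these were below 0 with a median of -0.29, and none escaped or exceeded. The histone chaperone gene Chaf1b fell by 0.44 (SE 0.068), the only call in the list, while the helicase subunit gene Mcm4 differed by -0.33, the end-joining kinase gene Prkdc by -0.26 and the polymerase gene Polq by -0.23. The centromere gene Mis18a (-0.41) was the next lowest, and Setd4 (-0.14) and the clamp loader gene Rfc4 (-0.09) the highest. Among genes of the ribosome, translation and the proteasome 17 of 17 were well measured and below 0, with a median of -0.28. Rogdi, which encodes no translation factor, was the only one called (a fall of 0.47, SE 0.072). The ribosomal protein gene Rpl24 differed by -0.28, the splicing-associated cyclophilin gene Ppil2 by -0.40, the proteasome subunit gene Psmd2 by -0.22, Eif2b5 by -0.20 and the ubiquitin ligase gene Ltn1 by -0.16.

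The Golgi, ER and vesicle transport list had the lowest median of the larger lists, -0.35 over 23 well-measured members of 26, and 22 of the 23 lay below 0. Its only call was Atg3 (a fall of 0.53, SE 0.068), and Kpna1 (-0.54, SE 0.093) did not pass. Pigz, at 9.94 and 9.93 in control and 9.96 and 9.95 in Mbd4 KO cells, was the exception (0.02, SE 0.065), and the endocytic scaffold gene Itsn1 (-0.14) came next. In the same list 2 other genes of GPI anchor synthesis, Pigx (-0.42) and Pigp (-0.36), lay below the median.

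**Figure D5:**
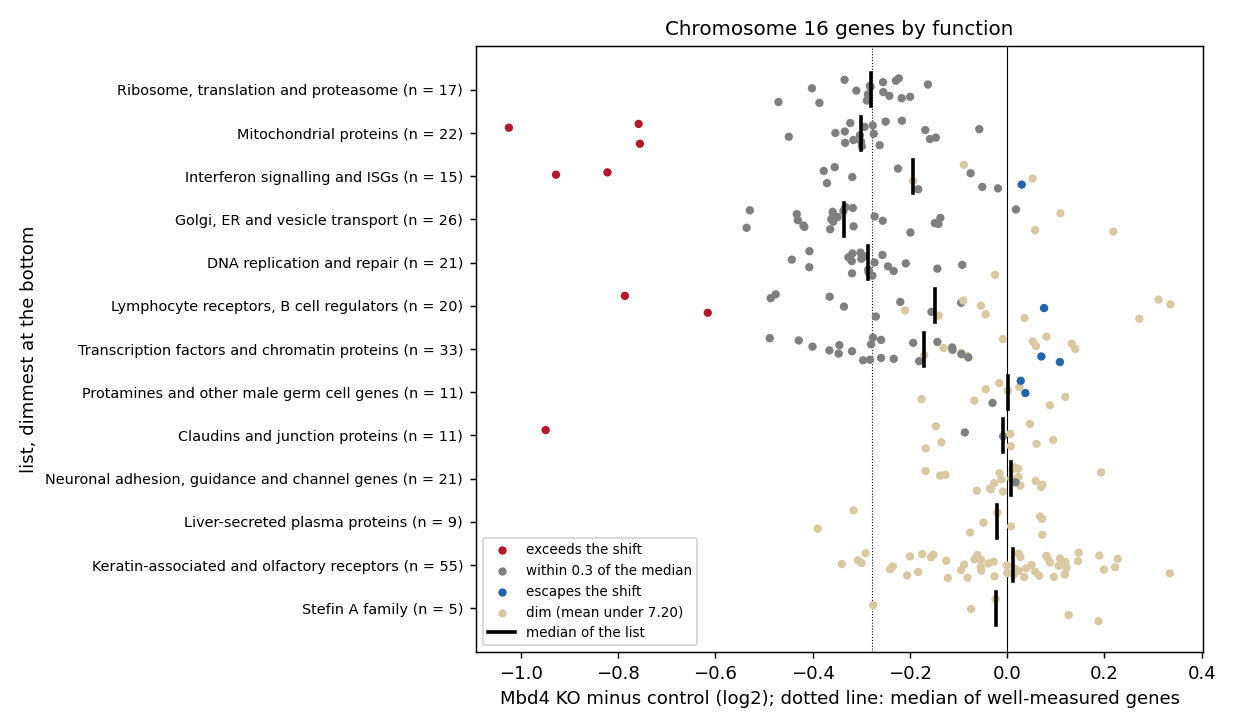
Difference (Mbd4 KO minus control, log2, horizontal axis) of each member of the 13 function lists, ordered by brightness, with the list median over all its members as a bar. Mitochondrial, translation, and replication lists cluster around -0.28 to -0.30, and the lists at the bottom, made almost wholly of dim genes, cluster around 0.

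The immune lists were more mixed. In the interferon list 12 of 15 members were well measured, with a median of -0.27, and 11 lay below 0. Nlrc3 and Tmem50b exceeded and were the only 2 called, though neither encodes an interferon receptor chain. Tmem50b, which lies next to Ifngr2, encodes a membrane protein of the secretory pathway, and Nlrc3 a NOD-like receptor. The receptor chains Ifnar1, Ifnar2 and Ifngr2 lay between -0.37 and -0.32, the class II transactivator gene Ciita at -0.18, the ubiquitin ligase gene Dtx3l at -0.07, Socs1, an inhibitor of cytokine signalling, at -0.02 and the escaping gene Parp14 at 0.03 (SE 0.072). Socs1 read 8.53 and 8.58 in control and 8.45 and 8.63 in Mbd4 KO cells, so its groups overlapped. Il10rb, a further receptor chain of the list, differed by -0.05 (SE 0.082), and its groups overlapped too.

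Of 20 lymphocyte receptors and B cell regulators, 11 were well measured with a median of -0.34, of which 10 lay below 0. Tigit, Cblb and Hcls1, an actin-binding adaptor of antigen receptor signalling (a fall of 0.48, SE 0.068), were called. The costimulatory genes Cd80 (-0.34) and Cd86 (-0.27) and the brighter cluster of Cd47 (-0.36) lay near the shift, with a second Cd47 cluster called at -0.46. Btla, an inhibitory receptor gene (-0.09, SE 0.066), and Nrros (0.08) lay nearest the control level. Among the 9 dim members 3 had both Mbd4 KO arrays above both controls: Igll1 read 6.35 and 6.33 against 6.72 and 6.64 (0.34, SE 0.069), Vpreb1 read 7.10 and 6.70 against 7.23 and 7.19 (0.31, SE 0.13), and the germinal centre repressor gene Bcl6 differed by 0.27 (SE 0.069). Another 3 had both Mbd4 KO arrays below both controls: Gcsam (-0.21), Trat1 (-0.14) and Eaf2 (-0.09). Of all dim genes, 23.4% lay above both controls in this way and 12.6% below. None of these dim members passed limma's threshold. Vpreb1 and Vpreb2 are near copies, so their probes may read both.

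Among 33 transcription factor and chromatin genes 23 were well measured, with a median of -0.26, and 21 lay below 0. Zfp148, a zinc-finger factor gene, fell by 0.49 (SE 0.070), the only call. Trp63, a p53-family factor gene, differed by -0.43, Ets2 by -0.35, the coactivator gene Crebbp by -0.26 and Runx1 by -0.19. Bach1 and Tbx1 were the 2 that escaped.

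Lists of genes of other tissues were almost wholly dim and centred on 0. All 55 keratin-associated and olfactory receptor members were dim, with a median of 0.01 and 26 of 55 below 0, as were 9 liver plasma protein genes (-0.02) and 5 stefin A genes (-0.02). Of 21 neuronal genes 1 was well measured, the somatostatin gene Sst (0.02), and the list's median was 0.01. Of 11 male germ cell genes 3 were well measured, Tnp2, Prm2 and Prm3 (-0.03), which lie next to each other in the order; their means were 7.34 to 8.09 and their median difference was 0.03. In the claudin and junction list Cldnd1 was the only gene of 11 that was called, while Cldn5 (-0.01, SE 0.14) and Cldn14 (-0.09, SE 0.092) were the other well-measured members.

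Genes with several clusters could be compared cluster by cluster, although the chromosome was chosen for its lower values, which favours a shared sign. Of 33 such genes 23 had at least 2 well-measured clusters; in 22 of these all such clusters lay below 0, in 1, Snx29, all lay above 0, and in 0 were they mixed. The median spread between clusters of a gene was 0.11. The widest was 0.49, in Pcnp, a gene named after its values were seen, whose dimmer cluster fell by 0.66 (SE 0.089) while its brighter one differed by -0.17 (SE 0.068). Its class was set by the brighter cluster, so Pcnp counted as within the shift. The dimmer cluster (10439980) is numbered between those of Nxpe3 (10439955) and St3gal6 (10440099), which lie on either side in gene order. The brighter one (10544570) is not. Probe positions were not given, so which cluster reads the chromosome 16 gene was not established, and the class of Pcnp rests on that choice. Clusters differing by more than 0.6 occurred in Gm5486 and in Vwa5b2, whose dim clusters differed by 0.28 and -0.35.

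Of the 12 miRNA genes 3 were well measured. Where the probes of their clusters lie was not given, so the values are not taken as levels of mature miRNA. Mature sequences from the RefSeq table of GRCm38.p6 are shown for these 3, with the seed (bases 2 to 8) in capitals, because a miRNA is known by its seed; the 3 seeds differ from each other.
miR-155-5p: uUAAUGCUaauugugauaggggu
miR-185-3p: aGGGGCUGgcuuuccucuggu
miR-568: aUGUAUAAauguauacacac

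Mir155, a miRNA gene induced in activated B cells and needed for germinal centre responses, read 8.20 and 8.35 in control and 7.96 and 8.15 in Mbd4 KO cells, a difference of -0.22 (SE 0.097) that lay within the shift and did not pass limma's threshold. Mir185, which lies within Tango2, read 7.57 and 7.34 against 7.61 and 7.68 and escaped at 0.18 (SE 0.095), while Tango2 differed by -0.32 (SE 0.072). Mir568 lies within Tigit and differed by -0.42 (SE 0.12), where Tigit fell by 0.79. Mir130b, dim at a mean of 6.36, differed by 0.28 (SE 0.083) and its neighbour Mir301b, at a mean of 6.79, by -0.09 (SE 0.070). Their host 2610318N02Rik differed by -0.02 in its brighter cluster and by -0.22 in its dimmer one. The difference between a host and its miRNA gene was not tested.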

How the data were processed

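RNA of the 4 samples was hybridised to Affymetrix whole-transcript arrays, per the labels' protocols. The deposited log2 levels, 1 per transcript cluster and array, are RMA values, per the submitters' processing notes. Nothing read here states the RMA settings, the genome build of the array or its probe positions, so coordinates are printed only for RefSeq sequence windows. Of 35556 clusters, 21789 had 1 gene symbol, 1621 several and 12146 none in the gene table of the platform, whose names may be out of date; of the first, 23 found no chromosome.

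The fit used limma 3.58.1 under R 4.3.3, with lmFit and a plain eBayes. Tests were two-sided, p-values were adjusted by Benjamini-Hochberg over the 21789 clusters, and the threshold was 0.05, without a filter or further normalization. The fit had 2 residual and 4.00 prior degrees of freedom and a median SE of 0.0777, and was tested on simulated data. Precision is limited by the number of arrays: an exact permutation test of 1 gene can give no p below 0.333. At most 39 values were identical between any pair of arrays.

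The members, lists, limits and tests were chosen with earlier results of these data known. The rule for named genes took the 10 highest and 10 lowest well-measured genes whose groups did not overlap, the 3 highest and 3 lowest dim ones, calls above 0, up to 2 at each end of every list, neighbours of the 4 most extreme, genes at the class limits, genes whose clusters differed by over 0.6 and the 2 brightest of each class. These were 72 genes. Other genes are named as members of a class, list or stretch. Alternatives were a replicate block, other eBayes settings, normalizations, filters and limits, and each array left out. Promoter and miRNA sequences are RefSeq's, GRCm38.p6. Figures were drawn with matplotlib 3.10.9.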

Additional observations from a re-analysis of the deposited data

How the results depend on the processing

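The main counts were 32 clusters called lower and 0 higher, 19 escaping and 13 exceeding genes and a median of -0.28. Quantile and cyclic loess normalization, a robust prior and averaging the clusters of a gene kept each of these that they bear on within 1.5 times, or within the spread between arrays. For the other settings, counts of calls cover the members only, and the share over all tested clusters is not given beside them. Calls lower numbered 215 with an intensity trend, 116 without the dimmest 30% of clusters, 92 at an adjusted p of 0.1, 1 (Gpr15) with all clusters of the table tested, and 0 without moderation of the variance, where limma gave 202 at an unadjusted p under 0.05. With any 1 array left out they numbered 3 to 3. The trend called 1 gene higher (Snx29), as did removal of the dimmest clusters (Igll1). The labels' replicate numbers are not said to pair cultures, and same-numbered arrays had deviations that correlated at 0.069 over all clusters and 0.11 over the members; with the replicate number as a block 12 clusters were called lower, all among the 32, and 12 of the named genes. Of 72 named genes 19 were called in the main setting, 32 with the trend, and 3 to 3 with an array left out. No called gene among the named ones changed sign under any of these, but 10 that were not called did under at least 1 (Cldn14, Cldn5, Parp14, Prm2, Prm3, Rtn4r, Snn, Socs1, Sst and Tbx1), all with main differences of at most 0.087 in size.

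Leaving out an array moved the median between -0.29 and -0.25, the escaping count between 12 and 27 and the exceeding count between 13 and 16. With genes well measured from the 30th percentile the median was -0.22, with 35 escaping and 20 exceeding; from the 75th percentile 1 escaped and 6 exceeded. A limit of 0.2 gave 41 and 26, and one of 0.4 gave 6 escaping and 9 exceeding. Centred on all well-measured genes, 0 escaped and 148 exceeded, since the median of the chromosome no longer set the zero. With a mean of at least 9, an alternative added after seeing the data, 3 escaped and 7 exceeded. The cause of the other moves was not tested. Precision is limited by 2 arrays per group, and signal over background was not assessed.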
